A study of Mus musculus with 8 samples.

Results

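The genes described here code for enzymes and membrane proteins of the lysosome and for the autophagy machinery that delivers cargo to it. They were chosen by symbol from a list of 30 genes, and 28 of these had a named probe set on the array, of 19505 genes measured in all. The list holds 9 cathepsins (8 measured), 9 other hydrolases and membrane proteins (8 measured) and 12 autophagy genes with their regulators (all 12 measured). The expression of Ctsd and Glb1 was not analysed here. Each measured member had 1 probe set.

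Expression was measured on 8 one-colour Affymetrix arrays of splenic T cells from male wild-type C57BL/6 mice. A pan T cell isolation kit gave a mixture of CD4 and CD8 cells, which were activated with beads against CD3 and CD28. The cells were then cultured for 48 h with human beta-defensin-2 (hBD-2, a cationic antimicrobial peptide of epithelia, 60 µL/mL in the labels) on 4 arrays or with its vehicle PBS on the other 4. All cells were bead-stimulated, so neither group shows resting T cells, and the mass of peptide is unknown. The spleens came from 4 mice, but nothing in the labels ties an array to a mouse. P-values therefore measure the spread between these arrays, which may be partly technical.

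Lysosomes are acidic organelles in which hydrolases break down proteins, lipids and sugars. Most of their soluble enzymes are tagged with mannose 6-phosphate in the Golgi and carried to the lysosome by receptors. In autophagy, a double membrane built by ATG proteins encloses cytoplasm and fuses with the lysosome. The transcription factors TFEB and TFE3 drive many genes of both systems through an element with the core CACGTG. In cytotoxic T cells, the granules that store granzymes are specialised lysosomes.

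Promoter sequences are shown first for the measured members that carry the longer form of this element, TCACGTG, upstream of their start, and then for the members lower with hBD-2 that have an entry. The sequences are RefSeq's, build GRCm38.p6, and run 5′ to 3′ with the gene. Capitals mark each CACGTG with the flanking base that completes TCACGTG on either strand.
Lamp1: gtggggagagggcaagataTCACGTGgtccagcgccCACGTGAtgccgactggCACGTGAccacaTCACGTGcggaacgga
Mcoln1: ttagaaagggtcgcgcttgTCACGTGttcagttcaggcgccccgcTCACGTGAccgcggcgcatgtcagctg
Ctsa: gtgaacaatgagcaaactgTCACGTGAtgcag
Gaa: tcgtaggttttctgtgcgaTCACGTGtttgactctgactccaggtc
Atg7: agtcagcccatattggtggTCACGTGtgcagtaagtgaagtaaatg
Ctsc: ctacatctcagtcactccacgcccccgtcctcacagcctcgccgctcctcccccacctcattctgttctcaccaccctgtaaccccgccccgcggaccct
Gusb: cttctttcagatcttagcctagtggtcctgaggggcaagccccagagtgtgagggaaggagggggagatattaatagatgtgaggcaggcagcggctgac

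The Lamp1 stretch lies at chr8:13159080-13159160 on the plus strand and holds 4 copies of TCACGTG in 81 bases. Mcoln1 has 2 copies at chr8:3500428-3500499, and Ctsa 1 at chr2:164833741-164833772, in 1 of its 2 promoter entries. Gaa has 1 at chr11:119267803-119267848 and Atg7 1 at chr6:114670944-114670989, all on the plus strand. The Ctsc stretch (chr7:88277985-88278084, plus strand) and the Gusb stretch (chr5:130003050-130003149, minus strand) are the 100 bases before each start. Over the whole window of 250 bases before to 50 after the start, these Ctsc and Gusb entries held no CACGTG, which says only that these letters are not there. Of 25 members with a promoter entry, 9 held CACGTG and 7 held TCACGTG on either strand, the second being part of the first. These counts include Ctsd and Glb1, which hold TCACGTG and have no expression value here. Over all 27025 genes with entries, 8.09% held CACGTG and 4.29% held TCACGTG. Ctsb, Ctsh, Ctsw, Asah1 and Becn1 have no entry.

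Of the 28 measured members, 5 fell with hBD-2 and none rose. The 5 were the ceramidase gene Asah1, the glucuronidase gene Gusb and the cathepsin genes Ctsb, Ctsc and Ctsw. Calls are from limma, fitted over all 19505 genes with Benjamini-Hochberg adjustment, at an adjusted p under 0.05. Over all genes 3.66% fell and 0.800% rose, or 4.46% in either direction. The shares over all genes given here are not matched for level. Of the 19505 genes, 7801 lay below the percentile 40 in mean level, where RMA compresses differences, but only 1 of the 28 members did. At an unadjusted p under 0.05 the members numbered 9 lower and 1 higher, against 12.8% lower and 9.44% higher over all genes. By class, 3 of 8 cathepsins, 2 of 8 other hydrolases and membrane proteins and 0 of 12 autophagy genes fell. The median log2 fold change (hBD-2 minus PBS) was -0.30 for the cathepsins, -0.19 for the other hydrolases and membrane proteins and -0.01 for the autophagy genes, against 0.02 over all genes. The autophagy median turned to 0.06, 0.05 and 0.06 under the rescalings (quantile normalization again, cyclic loess, and removal of the trend with level), so its sign depends on the scaling. It lay between -0.02 and 0.03 when single arrays were left out. The median of the other hydrolases and membrane proteins shrank to between -0.12 and -0.10 under the same rescalings. That of the cathepsins shrank to between -0.26 and -0.25, and to -0.22 without hBD-2 replicates 3 and 4 together. A lower value in a bulk sample can mean fewer cells of a type or less RNA per cell, which cannot be told apart here.

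**Figure D1:**
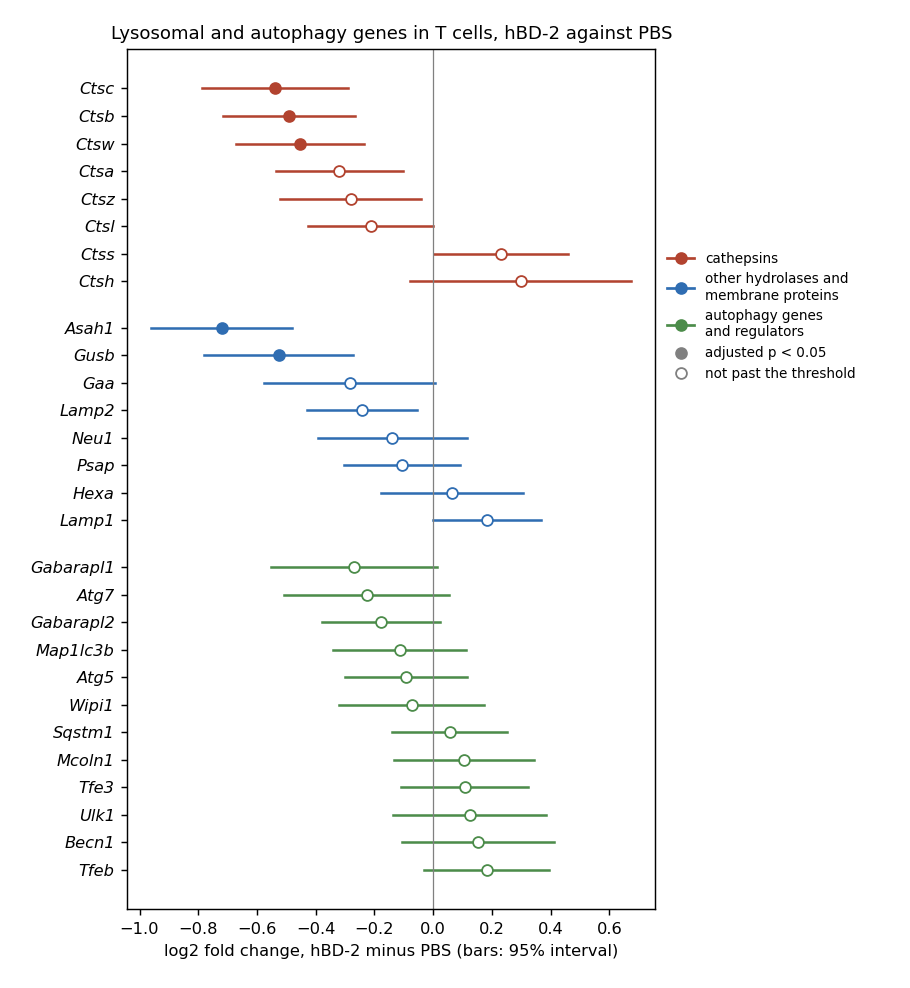
Log2 fold change of each measured member, hBD-2 minus PBS (x axis), with its 95% interval from limma, grouped as cathepsins, other hydrolases and membrane proteins, and autophagy genes. Filled points, 3 cathepsins and 2 other hydrolases, passed the threshold, and every autophagy gene's interval includes 0.

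Cathepsins are the main lysosomal proteases. Ctsc codes for cathepsin C, a dipeptidyl peptidase that removes the propeptide from granzymes and so activates them. The hBD-2 arrays had Ctsc at 9.16, 9.23, 8.74 and 9.18 log2 units, against 9.61, 9.62, 9.61 and 9.62 on the PBS arrays. The hBD-2 arrays all lay below the PBS arrays, with replicate 3 lowest. The log2 fold change was -0.54 (SE 0.114, limma adjusted p = 0.0249), a level 1.45-fold lower.

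Ctsb codes for cathepsin B, a cysteine protease with both endopeptidase and exopeptidase activity. Its log2 values were 9.38, 9.17, 8.96 and 9.12 with hBD-2, against 9.64, 9.65, 9.73 and 9.58 with PBS. Again the groups did not overlap, and hBD-2 replicate 3 was lowest. Ctsb fell by 0.49 on the log2 scale (SE 0.103, limma adjusted p = 0.0240).

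Ctsw codes for cathepsin W, a cathepsin found mainly in cytotoxic T cells and natural killer cells. Cells with hBD-2 had 9.10, 9.01, 8.77 and 8.85 log2 units, against 9.48, 9.40, 9.30 and 9.36 in cells with PBS. No hBD-2 array reached a PBS array, and hBD-2 replicates 3 and 4 were lowest. Ctsw fell by 0.45 on the log2 scale (SE 0.0998, limma adjusted p = 0.0288).

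Other cathepsins did not pass. Ctsa, the carboxypeptidase that also protects neuraminidase and galactosidase, was at 8.30, 8.14, 7.94 and 8.15 with hBD-2, against 8.46, 8.43, 8.53 and 8.38 with PBS. Its groups did not overlap either, but with an adjusted p of 0.0898 by limma it did not pass (log2 fold change -0.32, 95% interval -0.53 to -0.10). It passed with dim genes left out (0.0409), with the trended variance (0.0169) and without hBD-2 replicate 1 (0.0465). Ctsz, a carboxypeptidase, was at 6.90, 7.34, 6.94 and 7.01 with hBD-2, against 7.39, 7.39, 7.24 and 7.30 with PBS. Here hBD-2 replicate 2 lay among the PBS arrays (log2 fold change -0.28, limma adjusted p = 0.161). Ctsl, an endopeptidase, averaged 5.10 ± 0.155 with hBD-2 and 5.31 ± 0.0232 with PBS (SD, n = 4 each; limma adjusted p = 0.224).

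Ctsh and Ctss had positive values instead. Ctss, the cathepsin known for trimming the invariant chain of MHC class II in antigen-presenting cells, was at 8.19, 8.50, 8.28 and 8.57 with hBD-2, against 8.12, 8.14, 8.23 and 8.13 with PBS. Ctsh, an aminopeptidase, was at 4.94, 5.33, 5.01 and 5.58 with hBD-2, against 4.65, 5.15, 4.66 and 5.21 with PBS. Both groups overlapped, and neither gene passed (log2 fold changes 0.23 and 0.30, limma adjusted p = 0.218 and 0.335). In each group, Ctsh was higher on replicates 2 and 4 than on replicates 1 and 3.

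B cell markers split the arrays in the same way. The mean log2 value of 5 measured B cell markers (Ms4a1, Cd79a, Cd79b, Pax5 and Cd22) was 4.76, 6.34, 4.56 and 6.48 on the hBD-2 arrays, against 4.57, 5.59, 4.61 and 5.64 on the PBS arrays. Replicates 2 and 4 were thus high in both groups, and highest with hBD-2. Of these markers 0 of 5 passed for hBD-2 against PBS by limma, and 0 of 5 had an unadjusted p under 0.05. Ctss followed this order within the hBD-2 arrays and not within the PBS arrays. The part of B cell RNA in the Ctsh and Ctss values was not tested.

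**Figure D2:**
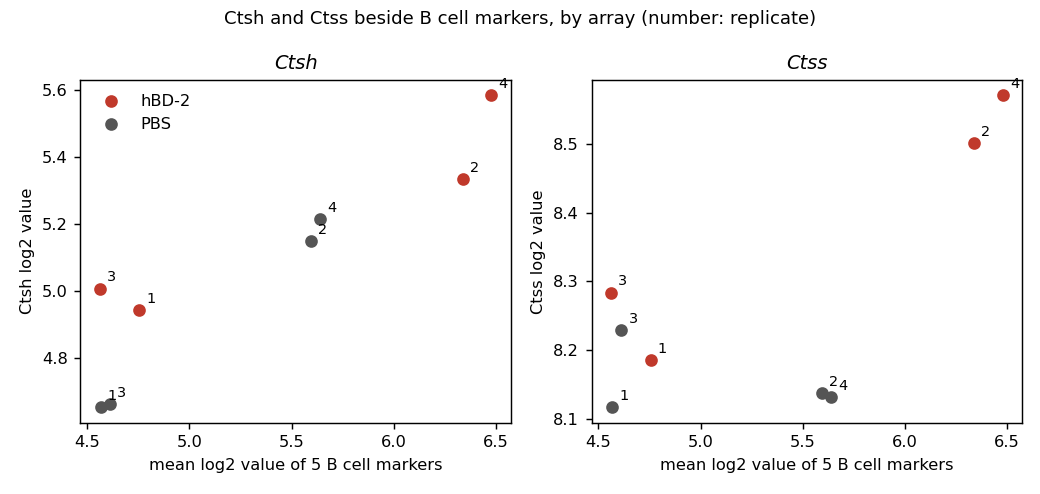
Log2 value of Ctsh (left) and Ctss (right) on each array against the mean log2 value of 5 B cell markers, hBD-2 in red and PBS in grey, with the replicate number beside each point. Replicates 2 and 4 of both groups lie to the right, and hBD-2 replicates 2 and 4 have the highest Ctsh and Ctss values.

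Among the other hydrolases, Asah1 had the largest fall of the measured members. It codes for acid ceramidase, which splits ceramide into sphingosine and a fatty acid. Asah1 was at 6.45, 6.44, 6.50 and 6.17 with hBD-2, against 7.13, 7.09, 6.94 and 7.29 with PBS. The groups stood well apart, and 3 of the hBD-2 arrays lay within 0.1 of each other. The log2 fold change was -0.72 (SE 0.109, limma adjusted p = 0.00470), a level 1.65-fold lower.

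Gusb, the beta-glucuronidase that degrades glycosaminoglycans, was at 6.98, 7.07, 6.72 and 6.78 with hBD-2. The PBS arrays gave 7.55, 7.54, 7.19 and 7.39. In both groups replicates 1 and 2 were above 3 and 4, and the groups did not overlap. Gusb fell by 0.53 on the log2 scale (SE 0.116, limma adjusted p = 0.0297), to a level 1.44-fold lower.

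The lysosomal membrane glycoproteins Lamp1 and Lamp2 lay on opposite sides. Lamp2, also needed for chaperone-mediated autophagy, was at 8.76, 8.76, 8.72 and 8.61 with hBD-2, against 8.88, 8.95, 8.96 and 9.02 with PBS. Lamp1, whose surface display marks granule release, was at 8.71, 8.69, 8.70 and 8.67 with hBD-2, against 8.46, 8.46, 8.51 and 8.62 with PBS. Neither pair of groups overlapped, and neither gene passed, with log2 fold changes of -0.24 for Lamp2 (limma adjusted p = 0.127) and 0.18 for Lamp1 (limma adjusted p = 0.226). With the scaling alternatives the Lamp1 value lay between 0.27 and 0.28 and that of Lamp2 between -0.16 and -0.14. The difference between both genes' changes was not tested.

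The remaining hydrolase members did not pass. Gaa, the acid glucosidase that digests glycogen, averaged 7.84 ± 0.272 with hBD-2 and 8.13 ± 0.120 with PBS (SD, n = 4 each; log2 fold change -0.28, limma adjusted p = 0.234). Its hBD-2 replicates 3 and 4, at 7.58 and 7.64, lay below all PBS arrays, while replicates 1 and 2, at 8.05 and 8.11, did not. Neu1, a sialidase, Psap, the precursor of the saposins that present lipids to their enzymes, and Hexa, a subunit of hexosaminidase, had log2 fold changes of -0.14, -0.11 and 0.07. Their limma adjusted p-values were 0.517, 0.526 and 0.773.

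**Figure D3:**
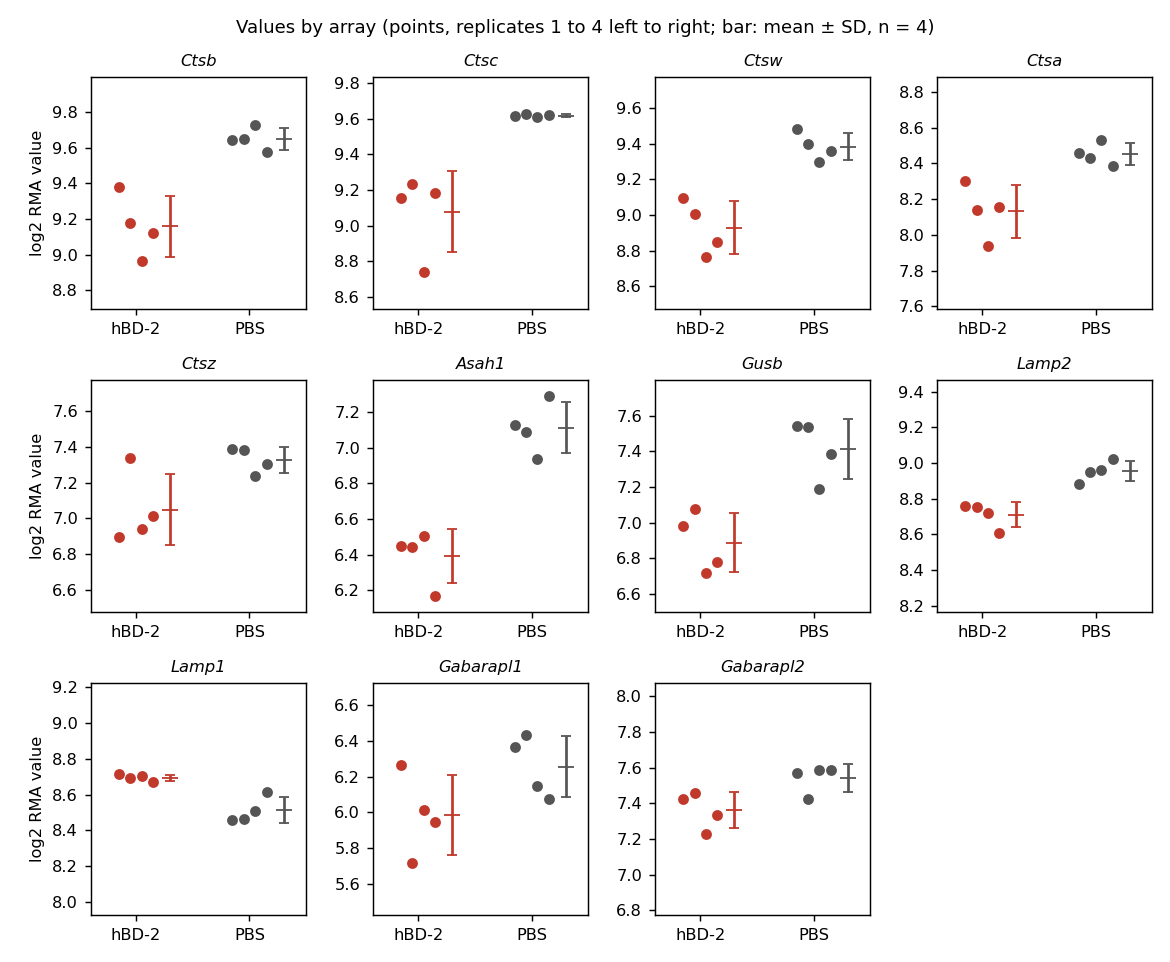
Log2 RMA values on each array for the members past the threshold and for those with the smallest p among the others of each class, hBD-2 in red and PBS in grey, with mean ± SD (n = 4 each) beside the points. Every panel spans 1.3 log2 units, and the groups are apart for Ctsb, Ctsc, Ctsw, Ctsa, Asah1, Gusb, Lamp2 and Lamp1.

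No autophagy gene passed the threshold, and by limma 0 of 12 had an unadjusted p under 0.05. The count stayed 0 in each of the 16 alternative fits. Intervals still allow changes, the lowest bound being -0.55 (Gabarapl1) and the highest 0.41 (Becn1) on the log2 scale. None of the 12 had groups that did not overlap.

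The 3 genes of ATG8 proteins, which coat the autophagosome membrane, had log2 fold changes below 0. Gabarapl1 was at 6.27, 5.72, 6.01 and 5.94 with hBD-2, against 6.36, 6.43, 6.15 and 6.07 with PBS (log2 fold change -0.27, limma adjusted p = 0.245). Gabarapl2 was at 7.42, 7.46, 7.23 and 7.34 with hBD-2, against 7.57, 7.43, 7.59 and 7.59 with PBS (log2 fold change -0.18, limma adjusted p = 0.275). In both genes 1 or more hBD-2 arrays lay among the PBS arrays. Map1lc3b, which codes for the widely used marker LC3B, averaged 8.48 ± 0.135 with hBD-2 and 8.59 ± 0.125 with PBS (SD, n = 4 each).

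Genes that load ATG8 onto membranes and start the process did not pass either. Atg7, the enzyme that activates ATG8 and ATG12, differed by -0.23 log2 units (limma adjusted p = 0.325), and Atg5, part of the conjugation complex, by -0.09. Wipi1, a phosphoinositide-binding protein of the early membrane, was at 4.40 ± 0.109 with hBD-2 and 4.48 ± 0.196 with PBS (SD, n = 4 each). It was the 1 member whose mean level lay below the percentile 40 of all genes, where RMA compresses differences. The initiating kinase gene Ulk1 and Becn1, part of the lipid kinase complex of nucleation, had log2 fold changes of 0.12 and 0.15. For Becn1, hBD-2 replicate 4 stood highest, at 7.89, with the other hBD-2 arrays between 7.36 and 7.56.

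Regulators and cargo receptors among the members had small positive values. Tfeb averaged 7.48 ± 0.141 with hBD-2 and 7.29 ± 0.0716 with PBS (SD, n = 4 each; log2 fold change 0.18, limma adjusted p = 0.297). Tfe3 and Mcoln1, the lysosomal calcium channel whose release activates TFEB, each had a log2 fold change of 0.11. Sqstm1, the receptor p62 that links ubiquitinated cargo to ATG8, had one of 0.06. None of these passed (limma adjusted p from 0.297 to 0.759).

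**Figure D4:**
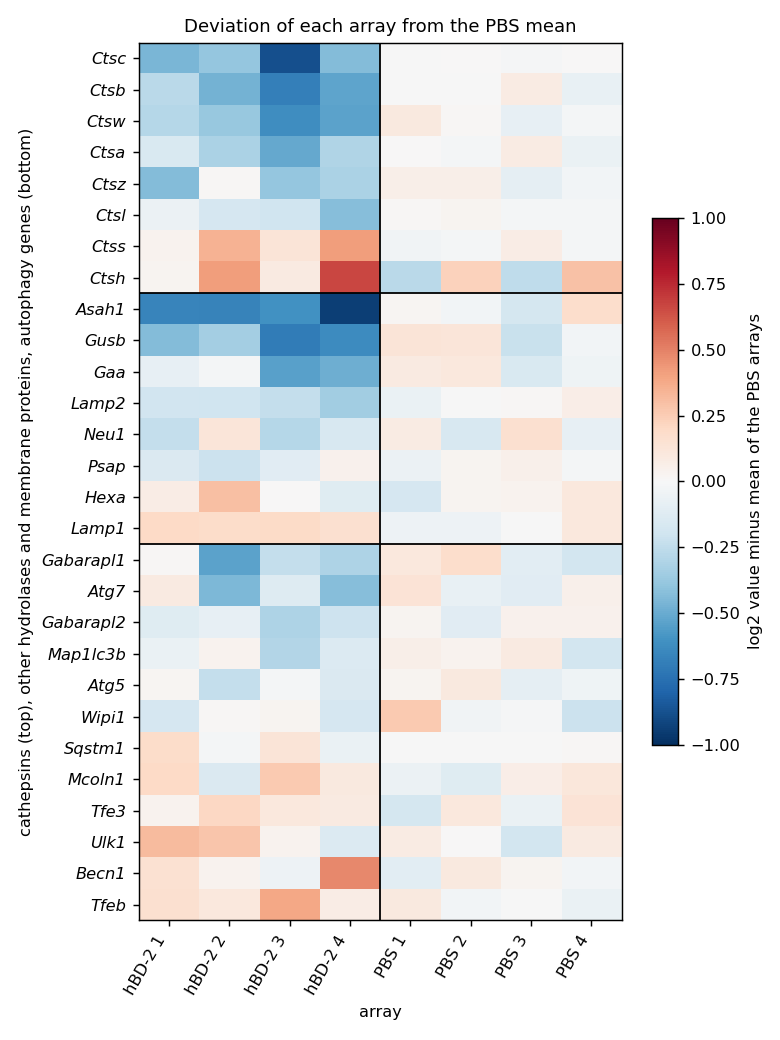
Log2 value of each measured member on each array minus its mean on the PBS arrays (colour), with hBD-2 arrays left of PBS arrays and the classes split by horizontal lines. Ctsc, Ctsb, Ctsw, Asah1 and Gusb are below the PBS mean on all 4 hBD-2 arrays, and the autophagy block shows both signs.

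Arrays differed in how far the members shifted. The mean deviation of the 5 lower members from their PBS mean was -0.42, -0.45, -0.70 and -0.61 log2 units on hBD-2 replicates 1 to 4. The members were chosen as lower, so these values describe the arrays only. The interquartile range of all values on an array was 3.64, 3.57, 3.45 and 3.45 log2 units on the hBD-2 arrays, against 3.76, 3.65, 3.64 and 3.69 on the PBS arrays (exact permutation test, two-sided, p = 0.0571, where 4 against 4 cannot go below 0.0286). Replicates 3 and 4 of hBD-2, with the narrowest ranges, also had the lowest Ctsb, Ctsw and Gusb values. Asah1 and Ctsc did not share this order. Of the hBD-2 arrays, replicate 3 had the highest Asah1 value (6.50), and Ctsc was higher on replicate 4 (9.18) than on replicate 1 (9.16). The part of the narrower ranges in the members' values was not tested beyond the rescaled fits. With quantile normalization, cyclic loess or the level trend removed, all 5 members kept their calls (limma adjusted p from 0.00604 to 0.0445), with log2 fold changes of -0.65 to -0.68 for Asah1 and -0.36 to -0.46 for the other 4.

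Of the 5 calls, that of Asah1 held when any single array was left out (highest limma adjusted p = 0.0198). The call of Ctsb was lost without PBS replicate 1, 2, 3 or 4 or hBD-2 replicate 3 or 4 (highest 0.0712), and that of Ctsc without PBS replicate 1, 2 or 4 (highest 0.0713). Ctsw and Gusb each lost it without PBS replicate 1, 2 or 4 or hBD-2 replicate 3 or 4 (highest 0.0893 and 0.0925). Without hBD-2 replicates 3 and 4 together, none of the 5 passed, with log2 fold changes of -0.67 (Asah1), -0.37 (Ctsb), -0.42 (Ctsc), -0.33 (Ctsw) and -0.39 (Gusb). That fit sets only 2 hBD-2 arrays against 4.

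Members whose groups did not overlap numbered 8 lower (Asah1, Ctsb, Ctsc, Ctsw, Gusb, Ctsa, Ctsl and Lamp2) and 1 higher (Lamp1), of 28. Over all genes, 9.36% were lower and 5.51% higher without overlap. Promoters with TCACGTG belonged to Lamp1, Mcoln1, Ctsa, Gaa and Atg7 among the measured members, and none of these passed. Among the 5 that fell, Ctsc and Gusb had a promoter entry.

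Further genes of the same pathways were read from 11 lists with 184 entries, 171 of them measured and none a member. With hBD-2, 19 of the 171 fell (11.1%) and 2 rose, against 3.66% and 0.800% over all genes. The count of each list below is to be read beside these shares. They are not matched for level: 16 of the 171 lay below the percentile 40 of all genes, against 7801 of all 19505. With these dim genes left out, 1192 genes were lower and 349 higher over the array, instead of 713 and 156. At an unadjusted p under 0.05 by limma the shares over all genes were 12.8% lower and 9.44% higher. The median log2 fold change of the 171 was -0.08. Rescaling moved that median to between -0.016 and -0.0057. The rises of Slc38a9, a lysosomal arginine sensor, and Sort1, a sorting receptor, were 1.28-fold and 1.37-fold. Each call was lost with the replicate block and on leaving out any array but hBD-2 replicate 1 (adjusted p up to 0.133 and 0.114 by limma), and that of Sort1 also under all 3 rescalings. Sort1 was also a dim gene, below the percentile 40 of all genes. Of the 19 lower genes, only Serpinb6b, Bnip3 and Bnip3l stayed past the threshold without hBD-2 replicates 3 and 4 together.

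Of 9 genes that deliver enzymes to the lysosome, 3 fell and 1 rose (Sort1). Igf2r, the large mannose 6-phosphate receptor, was at 8.09, 7.80, 7.68 and 7.72 with hBD-2, against 8.55, 8.44, 8.44 and 8.63 with PBS. The fall was 0.69 log2 units (SE 0.109), or 1.62-fold, at an adjusted p of 0.00552 by limma. M6pr, the small receptor of the same tag, was at 8.73, 8.86, 8.80 and 8.65 with hBD-2, against 9.33, 9.33, 9.25 and 9.14 with PBS. It fell 1.42-fold (limma adjusted p = 0.0112). Gnptab, whose product makes the tag, was at 7.53, 7.70, 7.46 and 7.43 with hBD-2, against 7.96, 8.05, 7.98 and 8.01 with PBS (1.39-fold lower, limma adjusted p = 0.0164). The calls of Igf2r and M6pr held when any single array was left out, and that of Gnptab was lost without hBD-2 replicate 4 or PBS replicate 2 or 4 (highest limma adjusted p = 0.0605). The list's median was -0.04, since the other members lay on both sides of 0, and 0.03 to 0.04 after rescaling.

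Of 8 measured cystatins, serpins and other inhibitors of lysosomal and granule proteases, 4 fell and none rose. Cst7 codes for cystatin F, an inhibitor of cathepsin C in cytotoxic cells. It was at 7.85, 7.90, 7.90 and 7.80 with hBD-2, against 8.44, 8.28, 8.44 and 8.21 with PBS. Cst7 fell by 0.48 on the log2 scale (SE 0.0916, limma adjusted p = 0.0151). That call was lost without hBD-2 replicate 4 or PBS replicate 1 (highest limma adjusted p = 0.0575).

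The serpins that fell, Serpinb9, Serpinb6a and Serpinb6b, are intracellular inhibitors of granule serine proteases rather than of cysteine cathepsins. Serpinb9, an inhibitor of granzyme B, was at 8.52, 8.23, 7.93 and 8.06 with hBD-2, against 8.998, 9.15, 8.92 and 8.81 with PBS (1.72-fold lower, limma adjusted p = 0.00818). Serpinb6b was 2.08-fold lower and Serpinb6a 1.61-fold lower (limma adjusted p = 0.00199 and 0.00733). These paralogs are similar in sequence, and how far their probes tell them apart was not tested. The list's median was -0.33, or -0.26 to -0.25 after rescaling.

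Of 11 further lysosomal proteases, Scpep1, a serine carboxypeptidase, fell 1.41-fold (limma adjusted p = 0.0185) and none rose. That call was lost without hBD-2 replicate 4 or PBS replicate 1, 2 or 4. Of 27 further hydrolases and activators, 3 fell and none rose, with a median of -0.16. That median was -0.10 with quantile normalization repeated, -0.07 on leaving out hBD-2 replicate 3, and -0.04 on leaving out hBD-2 replicates 3 and 4 together. Arsb, a sulfatase of glycosaminoglycans, was at 8.78, 8.54, 8.34 and 8.44 with hBD-2, against 9.41, 9.24, 9.15 and 9.30 with PBS (1.68-fold lower, limma adjusted p = 0.00410). Gm2a, the activator that presents GM2 ganglioside to hexosaminidase, was at 9.61, 9.46, 9.36 and 9.47 with hBD-2, against 10.04, 10.05, 10.07 and 10.01 with PBS (1.48-fold lower, limma adjusted p = 0.00504). Gla, a galactosidase of glycolipids, was 1.74-fold lower (limma adjusted p = 0.0309). It did not pass without hBD-2 replicate 4 or PBS replicate 1, 2 or 4 (highest 0.0925). For Arsb and Gm2a the call held without any single array.

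Membrane and transport proteins of the lysosome had 2 of 22 lower and 1 higher (Slc38a9). Ctns, the cystine exporter, fell 1.45-fold (limma adjusted p = 0.0166). Npc1, which exports cholesterol, was 1.36-fold lower (limma adjusted p = 0.0484). It passed under none of the 3 rescalings, and not on leaving out hBD-2 replicate 2, 3 or 4 or PBS replicate 1, 2 or 4 (highest 0.133). Of 16 subunits of the V-ATPase, the proton pump that acidifies lysosomes, 2 fell and none rose. These were the accessory subunit gene Atp6ap1 (1.43-fold lower) and the catalytic subunit gene Atp6v1a (1.41-fold lower), with limma adjusted p-values of 0.0254 and 0.0285. Log2 fold changes were below 0 for 15 of the 16, against 8993 of all 19505 genes, with a median of -0.13, or -0.07 to -0.05 after rescaling. Of the 16, 0 lay below the percentile 40 of all genes. With such dim genes left out, the median over all genes was -0.03. Neither Atp6ap1 nor Atp6v1a passed without hBD-2 replicate 4 or PBS replicate 1, 2 or 4 (adjusted p up to 0.0789 and 0.0870 by limma). Atp6v1a also did not pass without hBD-2 replicate 2 or 3.

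None of 21 genes of the TFEB family and its nutrient-sensing partners passed by limma. At an unadjusted p under 0.05 there were 3 (2 lower and 1 higher), against 12.8% lower and 9.44% higher over all genes. Mcoln2, a relative of Mcoln1, had the smallest p of that list, at 0.31 log2 units higher in mean with hBD-2 (limma adjusted p = 0.101).

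Few autophagy genes beyond the members passed. Of 20 measured genes of initiation and nucleation 1 fell, Tmem41b, a lipid scramblase of the endoplasmic reticulum (1.48-fold lower, limma adjusted p = 0.0239). Of 11 conjugation and ATG8 genes none passed by limma. An unadjusted p under 0.05 was found for 2 (1 lower and 1 higher), against 12.8% lower and 9.44% higher over all genes. Atg16l2, a paralog of the conjugation scaffold Atg16l1, had the smallest p there (log2 fold change 0.33, limma adjusted p = 0.124). Of 14 genes of autophagosome fusion 1 fell, Vps16, a subunit of the tethering complexes (1.44-fold lower, limma adjusted p = 0.0241). Neither Tmem41b nor Vps16 passed without hBD-2 replicate 3 or 4 or PBS replicate 1 or 4 (adjusted p up to 0.0759 and 0.0755 by limma), nor did Tmem41b without PBS replicate 2 or Vps16 without PBS replicate 3.

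Selective autophagy receptors had 2 of 12 measured genes lower and none higher. Bnip3 and Bnip3l code for mitochondrial receptors for ATG8 and are known targets of hypoxia-inducible factors. Bnip3 was at 8.66, 8.56, 7.87 and 8.38 with hBD-2, against 9.34, 9.41, 9.37 and 9.28 with PBS, 1.97-fold lower (limma adjusted p = 0.00494). Bnip3l was at 9.22, 9.16, 8.91 and 9.06 with hBD-2, against 9.81, 9.84, 9.77 and 9.75 with PBS, 1.63-fold lower (limma adjusted p = 0.00219). Both groups stood apart in each gene, hBD-2 replicate 3 was lowest in each, and both calls held without any single array.

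**Figure D5:**
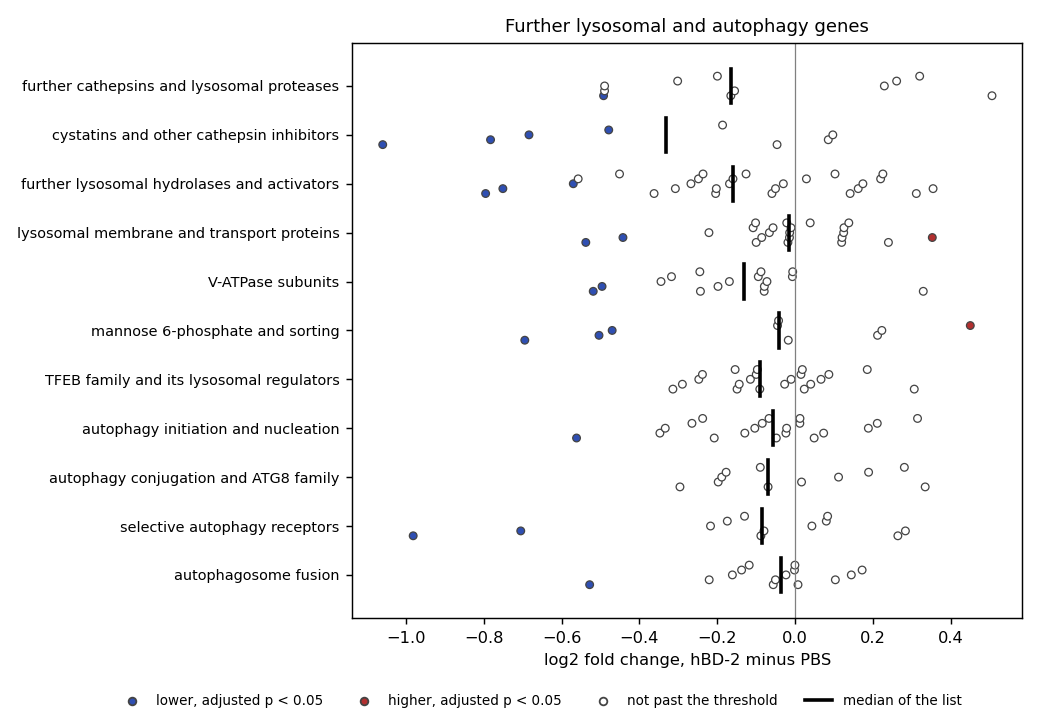
Log2 fold change, hBD-2 minus PBS (x axis), of each measured gene in 11 further lists (rows), with blue for genes lower and red for genes higher at a limma adjusted p under 0.05 and a black bar at each list's median. The lower genes number 19 and the higher ones 2, and Serpinb6b and Bnip3 lie farthest to the left. The row labelled as cathepsin inhibitors also holds serpins that inhibit granule serine proteases instead, Serpinb6b among them.

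TCACGTG was counted in the promoters of these lists too. It was found for 4 of 16 lower genes with an entry and for 33 of 137 listed genes with an entry (24.1%). Over all lower genes of the array it was found for 40 of 595 (6.72%).

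Markers of the labelled cell type were high, the mean log2 value of 11 T cell markers being 10.38 to 10.48 with hBD-2 and 10.36 to 10.45 with PBS. By limma 0 of the 11 passed and 1 had an unadjusted p under 0.05, Cd247 having the smallest (log2 fold change 0.25, limma adjusted p = 0.120). Cd247 passed, higher with hBD-2, with quantile normalization repeated, with cyclic loess and with the trended variance (lowest 0.0134). Macrophage and monocyte markers, whose cells are rich in lysosomes, averaged 3.82 to 4.12 log2 units with hBD-2 and 3.83 to 4.08 with PBS. Of these 12 markers 10 lay below the percentile 40 of all genes, and 1 passed, Itgam (1.54-fold lower, limma adjusted p = 0.0461), a call lost on leaving out any array but PBS replicate 1 (highest 0.126). At an unadjusted p under 0.05 this list had 2 lower and 2 higher, and 8 of the 12 had log2 fold changes above 0, against 10512 of all 19505 genes. The 2 lower were Itgam and Vcam1 (-0.35, limma adjusted p = 0.0863). The 2 higher were Cd14 (0.32, limma adjusted p = 0.0740) and C1qa (0.31, limma adjusted p = 0.187). Vcam1, Cd14 and C1qa were named with their values known. Dendritic cell markers averaged 3.86 to 4.07 with hBD-2 and 3.71 to 3.92 with PBS, and neutrophil markers 4.51 to 4.71 with hBD-2 and 4.38 to 4.58 with PBS, with 0 passing by limma in either list and 1 and 0 at an unadjusted p under 0.05. Siglech (limma adjusted p = 0.184) and Elane (0.252) had the smallest p in those lists, and Ms4a1 (0.331) among the B cell markers. Elane passed, higher with hBD-2, without hBD-2 replicate 1 (limma adjusted p = 0.0419). Natural killer cell markers averaged 4.66 to 5.04 with hBD-2 and 4.86 to 5.15 with PBS, with none of 4 past the threshold by limma, 1 at an unadjusted p under 0.05, and Klre1 closest (limma adjusted p = 0.0900). That average was raised by Eomes (8.69 with hBD-2, 8.91 with PBS, named with its values known). Of the 4, 2 lay below the percentile 40 of all genes. Klre1 passed, lower with hBD-2, with the trended variance, without hBD-2 replicate 1 and without PBS replicate 2 (lowest limma adjusted p = 0.0269). Of 7 mast cell and basophil markers 2 rose, Cpa3 1.98-fold and Fcer1a 1.48-fold, and that list averaged 4.79 to 5.29 with hBD-2 and 4.60 to 4.73 with PBS. The Cpa3 call held without any single array (highest limma adjusted p = 0.0490). That of Fcer1a was lost without hBD-2 replicate 4 or PBS replicate 1, 2 or 4 (highest 0.0940). It was also lost with quantile normalization repeated, the level trend removed or the replicate block (highest 0.0575). Without hBD-2 replicates 3 and 4 together, neither Cpa3 nor Fcer1a passed. Fcer1a lay below the percentile 40 of all genes. At an unadjusted p under 0.05 the list had 4 higher and 1 lower, which was Kit (1.59-fold lower, limma adjusted p = 0.0744), also named with its values known. The part of such cells in the lysosomal values was not tested.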

How the data were processed

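Per the submitters' processing notes, oligo and RMA (background correction, normalization between arrays, probe summary) made the values. The deposited table holds log2 values for 22203 probe sets on 8 arrays, from 1.73 to 12.8. For their versions, settings and annotation build, the sources used here give nothing. By GEO's platform annotation, 19572 probe sets carry 1 gene symbol, 0 carry several, and 2631 stay unnamed. All 19572 matched by gene identifier in RefSeq's gene table (GRCm38.p6), with no symbol changed. Where a gene had more than 1 probe set (55 genes), that of highest mean over the arrays stood for it, which left 19505 genes.

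Both groups were compared by lmFit and eBayes of limma 3.58.1 (R 4.3.3) with treatment as the only term, two-sided, and with dim genes kept. The number of arrays limits the precision, and RMA understates changes of dim genes. The members and lists were chosen with earlier results of these data known. All members are named. Of each further list or marker list, up to 4 genes past the threshold are named, or the 1 with the smallest p. Itemised arrays are given for members past the threshold and the 2 with the smallest p among the others of a class, and for Ctsh, Ctss and further genes that were picked with their values known. On simulated data the procedure was tested first.

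The labels do not say that a number marks 1 mouse, so the numbers were not taken as pairs. Same-numbered arrays of both groups correlated in their deviations from the group means at 0.18, 0.06, 0.16 and 0.00 (replicates 1 to 4). The highest correlation with another number was 0.03, 0.04, -0.04 and 0.09. Replicates 1, 2 and 3 thus matched their own number best, so a pairing may exist, and the replicate block was fitted as an alternative. Alternatives were 3 rescalings, a filter on dim genes, another variance model, separate probe sets, the replicate block, leaving out each array, and, chosen after seeing the data, leaving out hBD-2 replicates 3 and 4.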

Additional observations from a re-analysis of the deposited data

Results flagged for a closer look

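Among 118 sets of 4 arrays (members and other named genes in either group), 3 held an array far from the other 3, where chance gives about 1 in 20 sets. Ctsc on hBD-2 replicate 3 was at 8.74 log2 units, with the other hBD-2 arrays from 9.16 to 9.23. Without that array Ctsc stayed past the threshold (log2 fold change -0.43, limma adjusted p = 0.0352). Gabarapl2 on PBS replicate 2 was at 7.43, with the other PBS arrays from 7.57 to 7.59. Atp6ap1 on PBS replicate 1 was at 7.64, with the other PBS arrays from 7.51 to 7.53.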

How the results depend on the processing

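Across 16 alternatives the 28 members gave 447 values, of which 419 stayed on their side of the threshold, 24 lost a call, 4 gained one, and no called value changed sign. The 5 member calls were unchanged by the rescalings, by separate probe sets and by the replicate block. With the replicate block all genes gave 698 lower and 159 higher, and the further lists none higher (0 membrane proteins, which loses Slc38a9, and 0 sorting genes, which loses Sort1). The best match of replicate 4 was not its own number (correlation 0.0048, against 0.09 with another). Where the dim genes were left out, fewer tests were adjusted for: 1192 genes were lower and 349 higher, Ctsa passed (limma adjusted p = 0.0409), and calls numbered 3 further proteases, 5 further hydrolases, 5 V-ATPase subunits and 2 initiation genes lower, 0 sorting genes, 1 TFEB family gene and 1 receptor higher. Sort1 was itself left out there as a dim gene, so that fit says nothing on its call. With the trended, robust variance, 1554 genes were lower and 479 higher, Ctsa and Lamp2 passed, and calls numbered 3 further proteases, 7 further hydrolases, 4 V-ATPase subunits and 2 initiation genes lower, and 4 further-list genes higher, among them 1 conjugation gene and 1 receptor. Of called genes 82.0% were lower, but 69.7% after repeated quantile normalization (521 lower, 227 higher), 72.4% after cyclic loess and 73.1% after removal of the level trend. In the same order, the further lists' median was -0.0057, -0.015 and -0.016. The hydrolase and membrane members' median was -0.10 after the first and -0.12 after the last of these. Each rescaling left 1 membrane protein lower and 0 sorting genes and 1 receptor higher. The cause of these shifts was not tested.

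Leaving out single arrays gave 279 to 1074 genes lower and 33 to 322 higher, 1 to 6 members lower (0 to 4 cathepsins, 1 to 2 hydrolases), and 10 to 23 further-list genes lower with 0 to 4 higher. By list the single omissions gave 0 to 1 protease lower and 0 to 1 higher, 2 to 5 hydrolases lower, 1 to 2 membrane proteins lower and 0 to 1 higher, 0 to 3 V-ATPase subunits lower, 0 to 1 sorting gene higher, 0 to 1 initiation and 0 to 1 fusion gene lower, and 0 to 1 conjugation gene either way. Without hBD-2 replicates 3 and 4, 112 genes were lower and 16 higher, 0 members (0 cathepsins and 0 hydrolases) and 3 further-list genes were lower, and 0 of these were higher. The medians were then -0.12 for the hydrolase and membrane members and -0.014 for the further lists. By list, 1 inhibitor and 0 proteases, hydrolases, membrane proteins, V-ATPase subunits, sorting, initiation or fusion genes were lower. That fit has fewer samples.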
